A study of Sus scrofa with 13 samples.

Results

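The messenger RNA levels of 10 antioxidant genes were followed in pig liver before and after ischemia–reperfusion, with and without infusion of human mesenchymal stromal cells. The genes were the transcription factor gene NFE2L2, which encodes NRF2, 6 genes commonly listed as NRF2 targets (NQO1, GCLC, GCLM, TXNRD1, SRXN1 and SLC7A11) and 3 enzymes taken as constitutive (SOD1, SOD2 and CAT). They were selected by gene symbol from a count table of 35670 genes. All 10 were found, and all 10 were among the 16481 genes that passed the filter on low counts.

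NRF2 is held in the cytoplasm and marked for degradation by KEAP1, and oxidants or electrophiles that modify KEAP1 allow NRF2 to enter the nucleus and bind its target genes together with a small MAF protein. Its activity is therefore set largely through the protein, so that the level of NFE2L2 messenger RNA is not a direct reading of it. The targets make glutathione, reduce thioredoxin and sulfiredoxin substrates, or reduce quinones, whereas superoxide dismutases and catalase remove superoxide and hydrogen peroxide directly. In liver, reperfusion after ischemia is a well known source of such oxidants.

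All livers came from female Yorkshire pigs. The 2 baseline libraries (labelled 1a and 2) had no ischemia and no reperfusion. The 3 ischemic control libraries came after 45 min of total vascular exclusion of the liver and 6 h of reperfusion, without cells. In 4 arterial infusion and 4 portal infusion libraries the same ischemia and reperfusion were combined with 3000000 human bone marrow mesenchymal stromal cells per kg body weight, given after the clamping by an arterial (hepatic artery) or a portal (portal vein) route. The infused cells were thus of another species than the recipient, and how many were present in each biopsy was not measured here. The age and weight of the pigs behind each library were not given in the labels. The authors list control, portal and arterial pigs, with no separate baseline animals, and took liver biopsies before the clamping and again at 6 h. Which pigs gave the 2 baseline libraries, and whether their later biopsies are among the other libraries, was not stated. The libraries were therefore tested as unpaired, and p-values measure the spread between these libraries.

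Libraries held 18975413 to 35949178 counted fragments with a median of 30260803, and levels are given as CPM, counts scaled to a common library size with the TMM factors. No pair of libraries agreed within counting noise. Summed hepatocyte markers (11 of 12 found) were between 67270 and 155960 CPM, the highest of the 8 marker lists in every library. In 4 libraries (control 2, arterial 1, portal 1 and portal 4) the median correlation with the other libraries was 0.758 to 0.868, against 0.919 to 0.941 in the other 9, and these 4 are described below as standing apart. They belong to 3 groups, and between 7.40 and 20.8% of the tested genes had no read in them, against 1.78 to 9.19% in the others. Since each library is whole tissue, fewer cells of a type and less RNA per cell cannot be told apart. For the main differences, values without these 4 libraries are also given.

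GCLC and GCLM, the catalytic and the modifier subunit of glutamate-cysteine ligase, the enzyme that sets the rate of glutathione synthesis, were the members with the clearest separation of groups. Both were lower in every ischemic control liver than at baseline and higher in every infused liver than in any ischemic control liver. SOD2, CAT, TXNRD1 and SLC7A11 had lower means at 6 h than at baseline, with low values concentrated in the 4 libraries that stand apart. NQO1 was high in 2 arterial livers, and NFE2L2 and SOD1 overlapped between all groups. None of the 10 genes passed an adjusted p of 0.05 in any comparison, nor did any of the 16481 genes (percent called 0 in each of the 5 comparisons; edgeR quasi-likelihood test).

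**Figure D1:**
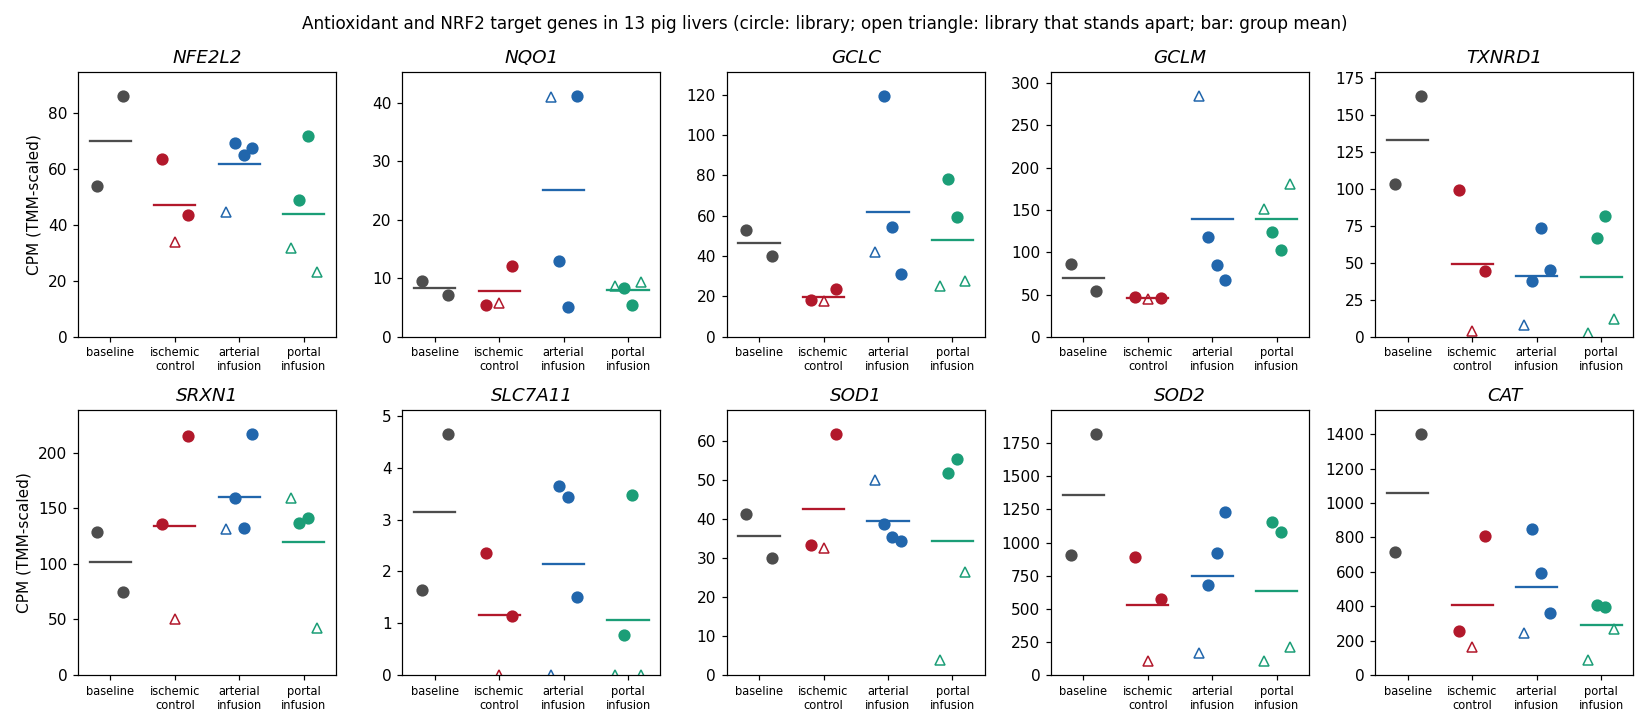
CPM (vertical axes, each starting at 0) of the 10 genes in the 4 groups (horizontal axes). Each symbol is 1 library, open triangles are the 4 libraries that stand apart, and bars are group means; for GCLC and GCLM the 3 control livers lie below all 8 infused livers, while TXNRD1, SOD2 and SLC7A11 are lowest in the open triangles at 6 h.

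GCLC (ENSSSCG00000001488, chromosome 7, 27209565-27253535) was at 52.9 and 39.8 CPM at baseline. In the ischemic controls it was at 18.5, 17.6 and 23.5 CPM. The arterial livers 1 to 4 had 42.2, 119, 54.6 and 31.1 CPM. The portal livers had 25.4, 78.3, 59.6 and 27.9 CPM in the same order. Controls were thus below both baseline libraries and below every infused liver, and infused livers spanned the baseline range in both directions. The 3 control livers averaged 19.9 CPM ± 3.21 (SD, n = 3), and the 8 infused livers 54.8 CPM ± 31.7 (SD, n = 8).

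GCLM (ENSSSCG00000037549, chromosome 4, 123371198-123390130) was at 85.6 and 53.8 CPM at baseline. The ischemic controls were close together at 47.1, 44.9 and 45.8 CPM. Arterial livers had 285, 118, 85.5 and 67.5 CPM. Portal livers had 152, 124, 102 and 181 CPM. The control values did not overlap with those of any other group. All 4 portal livers were also above both baseline livers, and the share of all genes that were so was not counted. The control mean was 45.9 CPM ± 1.09 (SD, n = 3), and the infused mean was 139 CPM ± 68.9 (SD, n = 8).

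In the comparison of all infused livers with the ischemic controls, GCLM was 3.03-fold higher in the fit, a log2 difference of 1.60 (SE 0.44, 95% interval 0.65 to 2.55). Its unadjusted p was 0.00270, and its adjusted p over all genes was 1.00 (edgeR). An exact permutation test of GCLM alone, two-sided, gave p = 0.00606, the smallest that the 165 arrangements of 8 against 3 livers allow. For GCLC the log2 difference was 1.45 (SE 0.48, 95% interval 0.44 to 2.47), with an unadjusted p of 0.00823 and an adjusted p of 1.00 (edgeR), and the exact permutation test gave p = 0.0303. Neither exact p is adjusted for the 10 genes examined. Of all tested genes, 34 had every infused liver above every control (0.206%), and 2 of the 10 members, GCLC and GCLM, were among them. An unadjusted p under 0.05 was met by 2.14% of all genes and by the same 2 members.

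Both differences kept their sign in all 24 alternative fits. Fits that only leave libraries out could hardly change it, since the groups did not overlap. The log2 difference of GCLC ranged from 1.18 to 1.73 with adjusted p-values from 0.231 to 1.00, and that of GCLM from 1.14 to 1.71 with adjusted p-values from 0.239 to 1.00 (edgeR, DESeq2 or limma). Without the 4 libraries that stand apart, GCLC differed by 1.73 (SE 0.48) and GCLM by 1.14 (SE 0.32) between the 5 infused and 2 control livers left. Summed macrophage and Kupffer cell markers (10 of 11 found) were 1390 to 2246 CPM in the controls and 807 to 1190 CPM in the infused livers, with 9 of the 10 markers lower in the fit. Markers of sinusoidal endothelium were lower in 7 of 8 (median -0.34), those of stellate and stromal cells in 7 of 9 (median -0.64), of neutrophils in 5 of 7 (median -0.28) and of erythroid cells in 3 of 4 (median -1.01). Lymphocyte markers were lower in 5 of 10 (median -0.07), cholangiocyte markers in 3 of 6 (median -0.20) and hepatocyte markers in 6 of 11 (median -0.02). The part of these marker differences in those of GCLC and GCLM was not tested. Hepatocyte marker sums overlapped, at 90137 to 99965 CPM in controls and 67270 to 143650 CPM in infused livers.

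**Figure D2:**
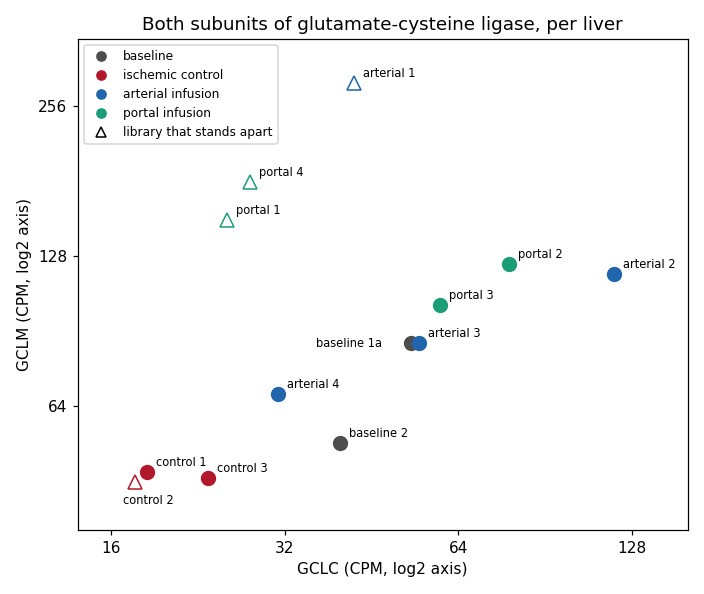
GCLC (horizontal) against GCLM (vertical), both in CPM on log2 axes, with 1 symbol per library, coloured by group. The 3 control livers occupy the lower left corner, at no more than 23.5 CPM of GCLC and 47.1 CPM of GCLM. Of the open triangles, 3 lie above the rest in GCLM, at 25.4 (portal 1), 27.9 (portal 4) and 42.2 CPM (arterial 1) of GCLC.

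Each route of infusion was also compared with the controls on its own. Against the controls, arterial livers differed by a log2 of 1.64 (SE 0.52) for GCLC and 1.60 (SE 0.48) for GCLM, and portal livers by 1.26 (SE 0.51) and 1.60 (SE 0.48). An unadjusted p under 0.05 was met by 3 members in the arterial comparison (GCLC, GCLM and NQO1; 1.57% of all genes), by 2 in the portal comparison (GCLC and GCLM; 2.79% of all genes) and by 1 between the routes (NQO1; 2.4% of all genes). Since all 8 infused livers lay above every control for GCLC and GCLM, the livers of each route necessarily did so too. Of all genes, 1.46% had every arterial liver above every control and 1.27% every portal liver. The adjusted p-values were 1.00 in each case (edgeR), and the exact permutation tests gave p = 0.0571 for both genes in the arterial comparison and p = 0.114 for GCLC and 0.0286 for GCLM in the portal one, where 0.0286 is the smallest that 4 against 3 livers allow. The arterial GCLM difference was 0.97 without arterial 1 and 0.997 without the libraries that stand apart, and the portal one was 1.29 without the latter. For GCLC the values without those libraries were 1.75 and 1.72. The routes share the 3 control libraries, so that these are not independent comparisons. Between the routes, GCLC differed by 0.37 (95% interval -0.60 to 1.34) and GCLM by -0.0059 (95% interval -0.91 to 0.89), arterial minus portal, and the livers overlapped.

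In the comparison of ischemic controls with baseline, GCLC was lower by a log2 of -1.22 (SE 0.58, unadjusted p = 0.0529, adjusted p = 0.978; edgeR) and GCLM by -0.60 (SE 0.54, adjusted p = 0.978; edgeR). In the exact permutation test both reached p = 0.1, the smallest that 3 against 2 libraries allow. With all 11 livers at 6 h in place of the controls, the GCLC difference from baseline was -0.17, and the GCLM difference was 0.56 in the opposite direction.

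NQO1 (ENSSSCG00000002754, chromosome 6, 17292962-17302593), a quinone reductase often used as a readout of NRF2 activity, was at 9.54 and 7.16 CPM at baseline. The ischemic controls had 5.50, 5.73 and 12.1 CPM. After arterial infusion the values were 41.1, 13.03, 5.14 and 41.2 CPM. After portal infusion the values were 8.69, 8.37, 5.51 and 9.40 CPM. Arterial livers 1 and 4 stood far above all others, arterial 3 was the lowest of all 13, and the remaining groups shared a range. Arterial against control livers gave a log2 difference of 1.69 (SE 0.62, unadjusted p = 0.0164, adjusted p = 1.00; edgeR) with overlapping groups and an exact permutation p of 0.257. This difference was 0.45 with limma's quality weights and 1.18 without the libraries that stand apart. Arterial minus portal gave 1.65 (SE 0.56, unadjusted p = 0.0103, adjusted p = 1.00; edgeR), again with overlap and an exact permutation p of 0.229, so that the difference rested on 2 livers. With limma's quality weights it was 0.77. Portal livers differed from controls by 0.035 (SE 0.59), a value whose sign changed in 7 alternative fits.

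SRXN1 (ENSSSCG00000023298, chromosome 17, 34582377-34589308), sulfiredoxin, which restores over-oxidized peroxiredoxins, was at 128 and 75.1 CPM at baseline. In the ischemic controls it was at 136, 50.6 and 215 CPM. Arterial infusion livers showed 131, 160, 132 and 217 CPM. Portal infusion livers showed 160, 137, 141 and 42.5 CPM. The lowest values belonged to control 2 and portal 4, and the controls overlapped with every other group. All 4 arterial livers were above both baseline livers, 2 of them by a small margin, and the share of all genes that were so was not counted. The infused livers differed from the controls by 0.05 (SE 0.45) on the log2 scale, a sign that changed in 5 alternative fits.

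TXNRD1 (ENSSSCG00000000843, chromosome 5, 80170334-80213889), the cytosolic thioredoxin reductase, was at 103 and 163 CPM at baseline. The controls had 99.2, 3.84 and 44.6 CPM. The arterial livers had 8.05, 37.8, 73.6 and 45.2 CPM. The portal livers had 2.80, 66.5, 81.9 and 11.7 CPM. All 11 livers at 6 h were below both baseline livers, although the nearest, control 1, was close to baseline 1a. With only 2 baseline livers, 15.6% of all genes had every control below both, and the share for all 11 livers was not counted. The control minus baseline log2 difference was -1.43 (SE 1.19, adjusted p = 0.978; edgeR), -0.91 (SE 0.44) without the libraries that stand apart, and -2.45 without control 1.

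SLC7A11 (ENSSSCG00000022649, chromosome 8, 88608083-88690589), the cystine importer that feeds glutathione synthesis, was scarce throughout, at 1.64 and 4.65 CPM at baseline. In the ischemic controls it was at 2.36, 0 and 1.14 CPM. After arterial infusion the values were 0, 3.65, 3.43 and 1.51 CPM. After portal infusion the values were 0, 0.77, 3.47 and 0 CPM. It had 22 to 122 reads in 9 libraries and no read in the 4 that stand apart, where a count of 0 allows up to 3 reads, or 0.0954 to 0.183 CPM, for counting error only. Its control minus baseline log2 difference of -1.41 had an SE of 2.00 (adjusted p = 0.978; edgeR). It was -0.86 without the libraries that stand apart, -2.41 without control 1 and -0.49 without baseline 2.

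NFE2L2 itself (ENSSSCG00000015987, chromosome 15, 82967485-83146185) was at 53.9 and 86.1 CPM at baseline. The controls had 63.4, 34.0 and 43.5 CPM. Arterial infusion livers showed 44.5, 69.4, 65.1 and 67.6 CPM. Portal infusion livers showed 31.8, 48.8, 71.6 and 23.2 CPM. All groups overlapped, and the 13 values spanned 3.71-fold, less than for any other member. The log2 difference was -0.58 (SE 0.48) for controls minus baseline, -0.41 without the libraries that stand apart, and 0.15 (SE 0.36) for infused livers minus controls.

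Of the enzymes taken as constitutive, SOD1 (ENSSSCG00000021355, chromosome 13, 195326573-195335273), the cytosolic copper-zinc superoxide dismutase, was at 41.1 and 29.9 CPM at baseline. In the ischemic controls it was at 33.2, 32.4 and 61.7 CPM. The arterial livers had 49.9, 38.6, 35.3 and 34.4 CPM. The portal livers had 3.84, 51.7, 55.4 and 26.4 CPM. Apart from portal 1, all livers lay between 26.4 and 61.7 CPM and the groups overlapped. The log2 difference was 0.26 (SE 0.72) for controls minus baseline and -0.20 (SE 0.53) for infused livers minus controls.

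SOD2 (ENSSSCG00000040317, chromosome 1, 7679352-7689564), the mitochondrial manganese superoxide dismutase, was at 907 and 1818 CPM at baseline. The controls had 892, 110 and 576 CPM. After arterial infusion the values were 164, 682, 924 and 1228 CPM. After portal infusion the values were 106, 1156, 1077 and 208 CPM. The controls were all below baseline, control 1 by only a small margin, and the infused livers overlapped with both groups. Controls minus baseline gave a log2 of -1.37 (SE 1.00, adjusted p = 0.978; edgeR), -0.91 (SE 0.41) without the libraries that stand apart, and -1.99 without control 1.

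CAT (ENSSSCG00000013302, chromosome 2, 26493664-26533881), peroxisomal catalase, was at 715 and 1400 CPM at baseline. In the ischemic controls it was at 255, 162 and 809 CPM. Arterial infusion livers showed 242, 849, 593 and 361 CPM. Portal infusion livers showed 89.2, 408, 397 and 267 CPM. Control 3 and arterial 2 exceeded baseline 1a, and the other 9 livers at 6 h were below both baseline livers. Controls minus baseline gave -1.37 (SE 0.74, adjusted p = 0.978; edgeR), or -1.005 without the libraries that stand apart and -2.33 without control 3, and infused minus control livers -0.09 (SE 0.56).

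Across the ischemic control and baseline groups, 8 of the 10 members had a log2 difference below 0, with a median of -0.91, where the median of all genes was 0.00. For 4 members (GCLC, GCLM, TXNRD1 and SOD2) every control lay below both baseline livers, which 15.6% of all genes did. No member had an unadjusted p under 0.05, against 4.37% of all genes. Between infused and control livers, 7 members were above 0 and the median was 0.25, against -0.02 over all genes. Apart from GCLC, GCLM and NQO1, the sign of each member's infused minus control difference changed in at least 1 alternative fit, and that of NQO1 was 0.86 (SE 0.55) but 0.066 with limma's quality weights.

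**Figure D3:**
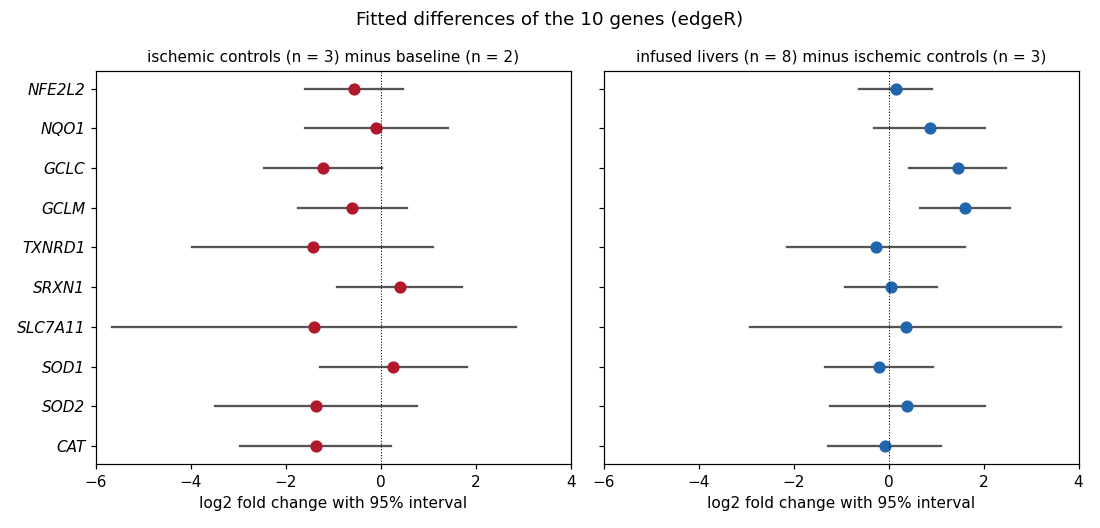
Fitted log2 fold change (horizontal axes) of the 10 genes with 95% intervals as lines, for ischemic controls minus baseline on the left and infused livers minus ischemic controls on the right. On the left every interval crosses 0, GCLC most narrowly at -2.46 to 0.02, and on the right only those of GCLC and GCLM lie above 0.

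Set against the baseline mean on the log2 scale, targets and the enzymes taken as constitutive differed unevenly between libraries. That label was not tested here, and SOD1, SOD2 and CAT spanned 16.0-fold, 17.1-fold and 15.7-fold over the 13 libraries. The mean of the 6 targets minus the mean of the 3 constitutive enzymes ran from -0.38 to 1.63 over the 11 livers at 6 h and was above 0 in 8 of them, and it was 0.26 and -0.26 in the baseline livers. This measure takes SLC7A11 at a value set by the prior count in the 4 libraries where it had no read. Over the other 5 targets it ran from -0.061 to 2.53 and was above 0 in 10 of the 11 livers, control 3 being the exception. The baseline livers were at 0.41 and -0.41. All 3 controls (0.39, 0.39 and -0.061), arterial 3 (0.31) and portal 3 (0.36) lay between these baseline values, and the other infused livers lay above both. The constitutive mean itself was below the baseline mean in all 11 livers, from -3.42 in portal 1 to -0.22 in control 3. The mean of the 6 targets ran from -2.47 in control 2 to 0.36 in arterial 2. The value of 2.53, in portal 1, thus went with the lowest constitutive mean. In the 4 libraries that stand apart, TXNRD1 was at 2.80 to 11.7 CPM, against 37.8 to 99.2 CPM in the other 7 livers at 6 h. SOD2 was at 106 to 208 CPM in them, against 576 to 1228 CPM. GCLM, by contrast, was at 152 to 285 CPM in the 3 infused livers among them, above the 67.5 to 124 CPM of the 5 other infused livers. Because these libraries were recognised from all genes, the values are a description with no test.

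**Figure D4:**
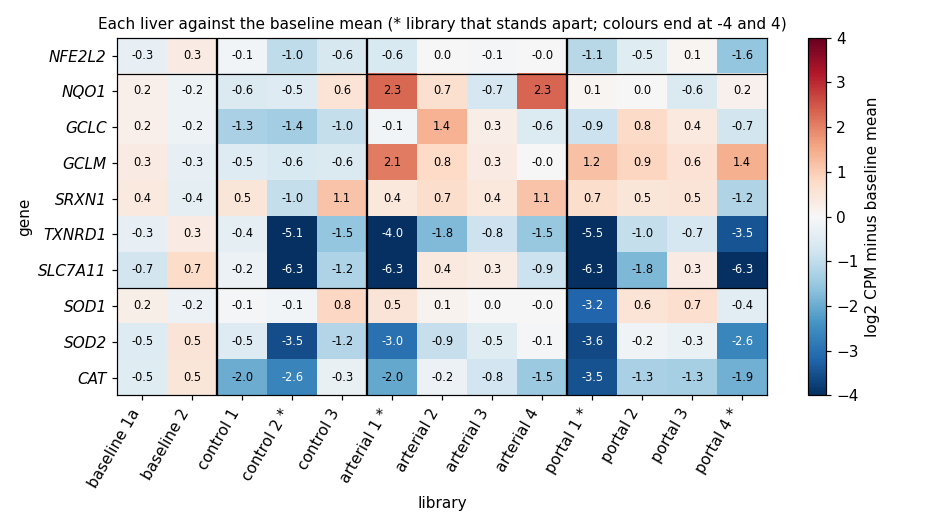
Log2 CPM of each gene (rows) minus its baseline mean in each of the 13 libraries (columns, asterisks marking those that stand apart), with blue below and red above the baseline mean. TXNRD1, SLC7A11 and SOD2 share dark blue cells in the 4 marked libraries, while GCLM is red in 3 of them.

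Other genes of the pathway were lower or higher in the libraries that stand apart. GSR, glutathione reductase, was at 3.34 to 23.0 CPM in these 4 and 26.6 to 36.9 CPM in the other 7 livers at 6 h. KEAP1, the NRF2 inhibitor, was at 75.5 to 104 CPM against 34.9 to 64.3 CPM, and GPX4, which reduces lipid peroxides, at 167 to 245 CPM against 90.8 to 128 CPM. Summed stellate and stromal cell markers were 141 to 357 CPM in the 4 libraries and 374 to 1418 CPM in the other 9, and their part in these differences was not tested.

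A wider list of 98 further genes of NRF2 regulation, NRF2 targets, antioxidant enzymes and sources of reactive oxygen species was examined, of which 84 were tested. None was called in any of the 5 comparisons in the edgeR fit over all 13 libraries. SOD3 had a log2 difference of 2.62 (SE 1.01, adjusted p = 0.978; edgeR) for controls minus baseline in that fit. With DESeq2 over the groups compared, which called 168 genes, its difference was 2.70 (adjusted p = 0.00560; DESeq2). In controls minus baseline 6 had an unadjusted p under 0.05 on the higher side (MAFF, NCF1, PRDX5, SOD3, GPX4 and CYBA) and 1 on the lower side (ABCC3), where 4.37% of all genes met this p in either direction, and the list's median was 0.26. MAFF, a small MAF partner of NRF2, was at 46.8, 91.4 and 85.5 CPM in the controls against 17.7 and 24.8 CPM at baseline, a log2 difference of 1.81 (SE 0.60, unadjusted p = 0.00863, adjusted p = 0.978; edgeR) with adjusted p-values from 0.0535 to 1.00 over the alternatives. GPX4 had 1.20 (SE 0.51), the peroxiredoxin PRDX1 1.06 (SE 0.56) and the glutathione peroxidase GPX1 0.86 (SE 0.42). The heme oxygenase HMOX1 had 0.62 (SE 0.49), KEAP1 0.31 (SE 0.50), TXNIP, an inhibitor of thioredoxin, 0.24 (SE 0.44), the NRF2 competitor BACH1 -0.10 (SE 0.43) and GSR -0.55 (SE 0.73). All 7 neutrophil markers found were above 0 in the same comparison with a median of 1.01. So were 4 of 4 erythroid markers tested (median 1.96) and 9 of 10 lymphocyte markers (0.75). The counts were 4 of 6 for cholangiocytes (0.88) and 6 of 10 for macrophages and Kupffer cells (0.37). Medians for hepatocytes, sinusoidal endothelium and stellate and stromal cells were -0.0076, -0.31 and -0.23. NCF1 and CYBA encode subunits of the phagocyte NADPH oxidase, and the part of these cell markers in their differences was not tested.

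In infused minus control livers the list had 0 genes on the higher and 2 on the lower side with an unadjusted p under 0.05, a share close to the 2.14% of all genes, and a median of -0.09. These were NCF4 at -0.94 (SE 0.37) and PRDX5 at -0.68 (SE 0.30). TXN and CYBB, which have no row under those symbols, were not analysed here.

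**Figure D5:**
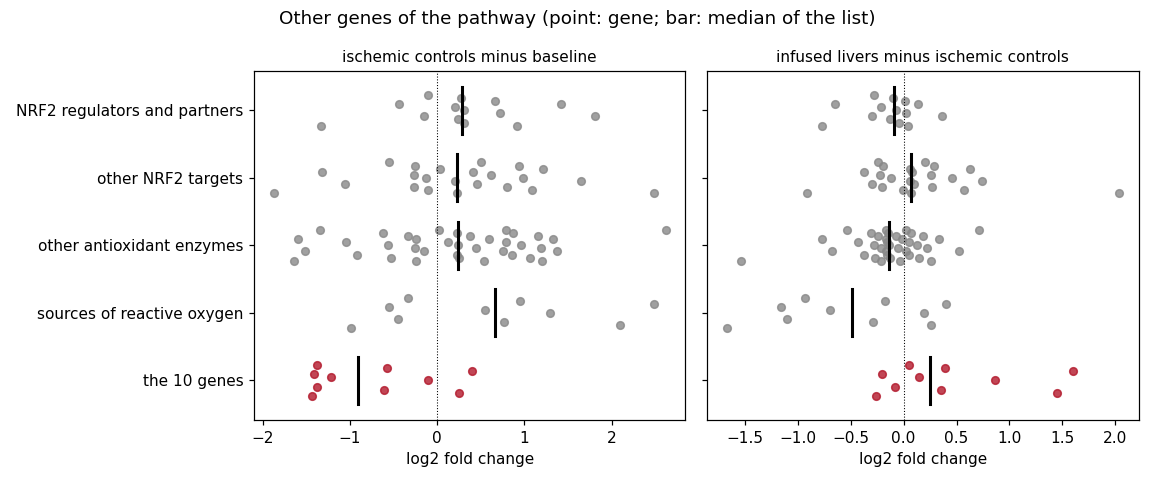
Fitted log2 fold change (horizontal axes) of each tested gene in 4 lists of other pathway genes and of the 10 members, with a bar at each median. The median of the members lies at -0.91 for controls minus baseline, where the other lists lie between 0.23 and 0.66, and at 0.25 for infused minus control livers.

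Among the members, GCLC and GCLM varied most alike over the 9 libraries that do not stand apart, with Pearson r = 0.927 and Spearman rho = 0.933, the highest r of the 45 pairs, and TXNRD1 and SRXN1 varied most in opposite directions (r = -0.876, rho = -0.850). Without the 2 libraries farthest from the median of the first gene, r was 0.929 for the former pair and -0.906 for the latter, over 7 libraries. These are descriptions over libraries of all 4 groups and carry no test. GCLC and GCLM parted in 3 of the 4 libraries left out, and control 2 was low in both. GCLM was at 285, 152 and 181 CPM in arterial 1, portal 1 and portal 4, where GCLC was at 42.2, 25.4 and 27.9 CPM. Of the 3 genes closest to each member over all 13 libraries, PTGR1 had r = 0.978 with GCLC, FOXJ3 0.879 with GCLM, WDR3 0.943 with TXNRD1 and ECRG4 0.891 with SOD2 over the same 9 libraries. For 5 others the highest such r was 0.824 for NFE2L2 (UBE2D1), 0.829 for NQO1 (TPD52), 0.848 for SRXN1 (TFE3), 0.791 for SLC7A11 (REV1) and 0.694 for SOD1 (MAP3K13).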

How the data were processed

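Poly(A)-enriched RNA of 13 pig liver biopsies was sequenced as paired, non-directional libraries. The authors mapped reads to Sscrofa11.1 with HISAT2 and counted them per Ensembl 110 gene with FeatureCounts; the deposited table holds raw counts, without normalization, for 35670 genes. Strand was not recorded, so overlapping antisense genes cannot be told apart. Genes were tested with edgeR 4.0.16 (quasi-likelihood, R 4.3.3) in 1 fit over all 13 libraries with TMM scaling and edgeR's default expression filter (16481 genes), and Benjamini-Hochberg adjustment over all of them at 0.05. The common biological coefficient of variation was 0.729. Exact permutation tests of single genes were two-sided on log2(CPM + 1). Coordinates are 1-based, from RefSeq's Sscrofa11.1 table. Groups came from the sample labels.

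Alternatives were DESeq2 1.42.0, limma 3.58.1 (voom with quality weights), other scalings and filters, a replicate block, each library left out, and the fit without the 4 libraries that stand apart, which was added after the data had been seen. For DESeq2, the way the contrast is specified was changed from numeric to named after its counts had been seen, and both are given in the closing section. The members and lists were chosen with earlier results of these data known. Named genes are the 10 members in every comparison, 12 pathway genes by role (1 of them is not reported here), any other listed gene past the threshold, and the 3 genes most correlated with each member. NCF1, NCF4, PRDX5, CYBA and ABCC3 were named after their values were seen, for an unadjusted p under 0.05, and SOD3 likewise. Replicate numbers did not pair libraries (median correlation of deviations -0.03 over 16 pairs).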

Additional observations from a re-analysis of the deposited data

How the results depend on the processing

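With DESeq2 over all 13 libraries, 6 genes passed the threshold for controls against baseline, 1 for infused livers against controls, 4 for portal livers against controls and 1 for arterial against portal livers; over the groups compared it called 168, 0, 3 and 0, and 1 for arterial livers against controls. Of the 168, 1 was a listed pathway gene, SOD3, which was named after its value was seen. With the numeric contrast used first, these were 7 in place of 6 and 0 in place of 1 for arterial livers against controls, and the other counts were equal. Without a filter on low counts edgeR called 30, 19, 11, 14 and 5 genes (controls against baseline, infused, arterial and portal livers against controls, arterial against portal). Without the libraries that stand apart it called 1 gene for infused and 1 for arterial livers against controls. No member was called under any alternative. The cause of these changes was not tested.

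Signs that changed, all of log2 differences that did not pass the threshold, were as follows. For controls minus baseline, NQO1 became 0.0838 with limma, 0.13 with the replicate block, 0.53 with all 11 livers at 6 h and 0.0660 without the libraries that stand apart; SOD1 became -0.0417 with the replicate block; GCLM became 0.56 and BACH1 0.16 with all 11 livers; and KEAP1 became -0.0853 without the libraries that stand apart. For infused minus control livers, limma gave 0.44 for TXNRD1, -0.0687 for SRXN1 and 0.0503 for CAT, the replicate block gave -0.98 for SLC7A11 and -0.19 for SOD2, and SRXN1 became -0.18 without the libraries that stand apart. The mean difference behind the exact permutation test changed sign for TXNRD1 under upper quartile scaling (p = 0.994) and for SRXN1 without those libraries (p = 0.857). For portal minus control livers NQO1 became -0.32 with limma, -0.27 with the replicate block and -0.34 without those libraries. For arterial minus portal livers GCLC became -0.11 with limma, and GCLM 0.00674 with edgeR over these groups and 0.00203 without the filter.

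Leaving out 1 library at a time, controls minus baseline ranged from -0.54 to 0.11 for NQO1, -0.12 to 0.83 for SRXN1, -0.0862 to 0.49 for SOD1, -0.0705 to 0.55 for KEAP1 and -0.40 to 0.0558 for BACH1. Infused minus control livers ranged from -0.0339 to 0.42 for NFE2L2, -0.81 to 0.76 for TXNRD1, -0.34 to 0.56 for SRXN1, -0.65 to 1.35 for SLC7A11, -0.37 to 0.14 for SOD1, -0.0881 to 1.01 for SOD2 and -0.48 to 0.88 for CAT. Portal minus control livers ranged from -0.16 to 0.47 for NQO1, and arterial minus portal livers from -0.15 to 0.72 for GCLC and -0.64 to 0.22 for GCLM. The replicate numbers share no animal or batch that the labels name, and the replicate block called 0 genes in each comparison. Of 31 further fitted differences not printed here, 20 changed sign in at least 1 alternative, in 60 of 741 values. Only 2 baseline and 3 control libraries limit every comparison with them.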
